A study of Mus musculus with 8 samples.

Results

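The 36 genes described here encode the actin and myosin machinery that bends the neural plate: Shroom scaffolds, small GTPases and the Rock kinases, nonmuscle myosin II, the actins, proteins that build, sever and crosslink filaments, Abl kinases, and proteins of the apical junctions. They were chosen by name for this function, with earlier results of these data known. Each was found by an exact match of its symbol among the 26608 genes that the 8 libraries list. Counts were seen for 15162 of the listed genes and for 35 of the 36 members. Levels are given as CPM, each gene's counts scaled by the library total.

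The libraries came from FVB mouse embryos taken on gestational day 8.5, when the neural folds begin to meet. Tissue was cut from cryosections by laser just behind closure site 1, where the neural tube had closed (closed tissue), and just in front of it, where the folds were still apart (open tissue). There were 2 libraries of closed tissue from diabetic dams (15 and 16), 2 of open tissue from diabetic dams (13 and 14), 2 of closed tissue from normal dams (11 and 12) and 2 of open tissue from normal dams (9 and 10). The sources used here do not give how the dams became diabetic, the number of embryos or litters per library, or whether embryos were shared by closed and open tissue, so every p-value below measures only the spread between these libraries.

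During closure, cells of the neural plate narrow at their apical side and so turn a flat sheet into a tube. Shroom3 brings Rock kinases to the apical junctions, Rock phosphorylates the light chain of myosin II, and myosin pulls on a belt of actin filaments that is anchored in the junctions. Mouse embryos without Shroom3, Vcl, Cfl1, Marcks or Marcksl1 are known to have an open neural tube, and embryos that lack Enah together with one of its partners do too.

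The assay was SOLiD SAGE, which counts 1 short tag per transcript, read from the CATG site nearest to the transcript's 3′ end. A count therefore does not grow with transcript length, but it depends on that one tag being present, long enough and found in 1 gene. The tags below were read from GENCODE M21 transcripts (GRCm38, 1 transcript per gene), with the CATG site in capitals. They are shown for the abundant Actb, for Myl6 and Actg1, which are nearly or wholly without counts, and for the sparse Shroom3. Those of Rock2, Enah and Macf1 are shown because the values of these genes are described further on, although none of them passed the adjusted threshold. Whether the tags account for these levels was not tested.
Actb, chr5:142903362-142903388, minus strand, 3′ UTR: CATGccctgagtccaccccggggaagg
Actg1, chr11:120346106-120346132, minus strand, 3′ UTR: CATGtggctcggtcacttgggggctgg
Myl6, chr10:128492066-128492092, minus strand, coding sequence or across its end: CATGaggacagcaatggttgcatcaac
Shroom3, chr5:92964659-92964685, plus strand, coding sequence or across its end: CATGggactcctggggggacatctgta
Rock2, chr12:16987660-16987686, plus strand, 3′ UTR: CATGatttagagagtcatcttggatca
Enah, chr1:181905548-181905574, minus strand, 3′ UTR: CATGtctagatgagtctgcacgttttc
Macf1, chr4:123349804-123349830, minus strand, 3′ UTR: CATGttgctgtgtgattatctcaattg

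All 36 members had a CATG site in the transcript examined, and in 33 the tag began in the 3′ UTR. The site lay a median of 164 bases from the transcript's end, between 6 bases in Myh10 and 973 bases in Marcks. In 29 members the transcript was long enough beyond the site for a whole tag of 27 bases. In the other 7 (Rhob, Myh9, Myh10, Cfl2, Actn4, Abl1 and Pard3) the transcript examined ended 6 to 22 bases after the start of the site. These cut tags were not looked for in other genes, and which transcript or site gave the counts of these 7 members was not examined. Of the 29 whole tags, that of Myl6 was the only one found letter for letter in another gene on the same strand, namely in 4 pseudogenes (Gm10080, Gm11836, Gm5526 and Gm5915). The tags of Rhoa, Rac1, Evl, Cfl1 and Vcl were each found in 1 other gene on the opposite strand. With up to 2 mismatches, those of Cfl1 (Arcn1) and Marcksl1 (Akr1c19) also had a match in another gene. Whether the counting used strand is not stated in the sources used here. Across the files, 734 of 823 genes whose every tag was shared with another gene had no count in any library (89.2%), against 5355 of 17321 genes with at least 1 tag of their own (30.9%). The Actg1 tag was found in no other transcript, and that gene had 65 counts in diabetic open library 14 and none in the other 7 libraries. Transcripts of Myl6 carry 5 different tags, of which 1 was examined, and whether all of them are shared was not looked up. The values of Myl6 and Actg1 are given as listed and not as levels of expression. What left these 2 genes with few or no counts was not tested.

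The library totals ran from 5041586 to 16655583 counts, and the 36 members together made up 0.777% to 1.11% of each library. The floor of 3 counts lay between 0.180 and 0.595 CPM and covers counting error only. Neural markers (Sox1, Sox2, Sox3, Hes5, Nes and Pax6) summed to between 635 and 1030 CPM in 7 libraries and to only 104 CPM in library 13 (diabetic, open). This library had the highest sums of paraxial mesoderm markers (1591 CPM, against 152 to 852 CPM elsewhere) and of endothelial markers (307 CPM, against 26.4 to 135 CPM). Its sum of heart markers was also highest (108 CPM, against at most 6.17 CPM), but Gata4 alone gave 87.7 CPM, and Nkx2-5 and Tnnt2 were at 0. Member values that rest on library 13 are given with and without it.

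Levels of the members spanned more than 3 orders of magnitude. Actb and Cfl1 had median levels above 1000 CPM, 11 members lay between 100 and 1000 CPM, 14 between 10 and 100 CPM, 6 between 1 and 10 CPM, and 3 below 1 CPM. The pair of Actb and Cfl1 supplied 48.1% to 57.0% of all counts of the 36 genes in each library. Since tags differ in how well they are counted, the order of levels between genes is a description of tag counts.

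**Figure D1:**
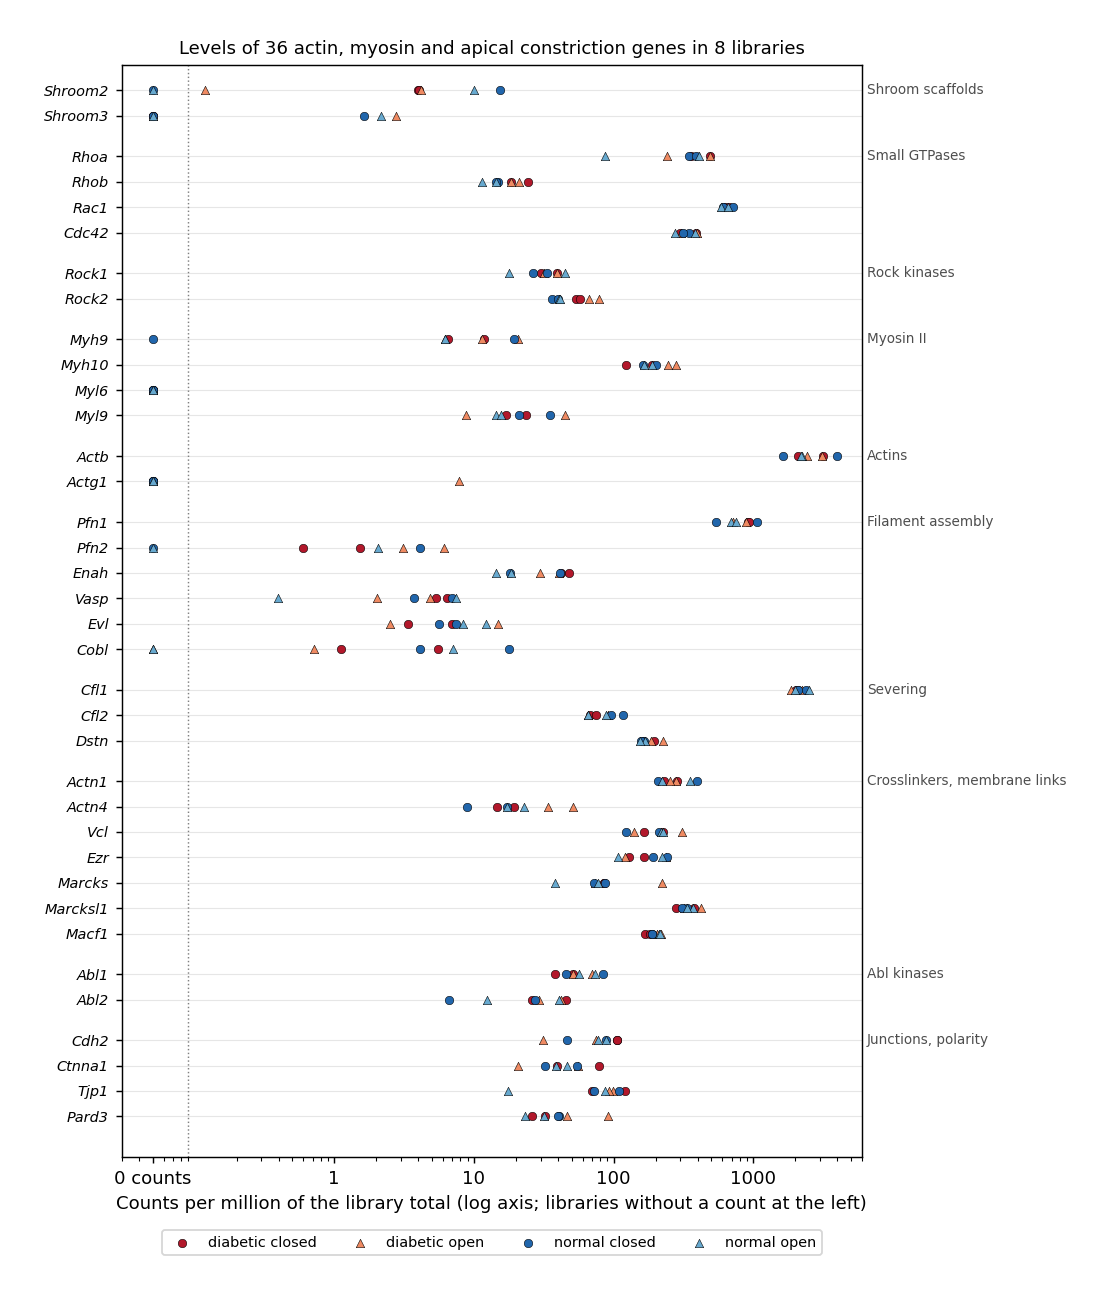
Level in CPM (counts scaled by the library total, log axis) of each of the 36 members in the 8 libraries, grouped by role. Circles are closed and triangles open tissue, reds diabetic and blues normal dams, and libraries without a count stand at the far left. Actb and Cfl1 lie highest, and Myl6 has no count in any library.

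The Shroom scaffolds were sparse. Shroom3, which recruits Rock to apical junctions, had 0 and 0 CPM in diabetic closed, 0 and 2.75 CPM in diabetic open, 0 and 1.63 CPM in normal closed and 2.17 and 0 CPM in normal open libraries, which is 23, 11 and 22 counts in 3 libraries. Its relative Shroom2, which also binds Rock, had 3.97 and 4.05 CPM in diabetic closed, 4.20 and 0.119 CPM in diabetic open, 15.3 and 0 CPM in normal closed and 10.1 and 0 CPM in normal open libraries. For both genes libraries with 10 or more counts stood beside libraries with 0 or 1 in the same group, so no difference between groups was detectable.

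The small GTPases were well counted. Rac1, which drives branched actin networks, had the steadiest level of all members, between 592 and 716 CPM, with a coefficient of variation over the 8 libraries of 6.75%. Only 0.0424% of the 11779 genes tested had a lower one. Cdc42, a GTPase of cell polarity, ranged from 274 to 399 CPM. Rhoa, the main activator of Rock, lay between 240.5 and 494 CPM in 7 libraries and at 86.6 CPM in normal open library 10. Rhob, a shorter-lived relative of Rhoa with a cut tag, had 24.6 and 18.6 CPM in diabetic closed, 18.4 and 21.01 CPM in diabetic open, 14.8 and 14.4 CPM in normal closed and 11.5 and 14.3 CPM in normal open libraries. The 4 diabetic libraries all lay above the 4 normal ones, without overlap.

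Both Rock kinases, which act on the myosin light chain, were present in every library. Rock2 had 54.0 and 57.1 CPM in diabetic closed, 66.6 and 78.2 CPM in diabetic open, 36.1 and 40.1 CPM in normal closed and 40.8 and 41.5 CPM in normal open libraries. All diabetic libraries were above all normal ones, and the normal libraries kept within a narrow range. Rock1 ranged from 17.8 to 44.9 CPM, with both ends in normal open tissue.

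Of the nonmuscle myosin heavy chains, Myh10 (myosin IIB) was counted far above Myh9 (myosin IIA). Myh10 had 122 and 187 CPM in diabetic closed, 279 and 244 CPM in diabetic open, 202 and 163 CPM in normal closed and 188 and 165 CPM in normal open libraries. Both diabetic open libraries were higher than the other 6. Myh9 had 11.9 and 6.56 CPM in diabetic closed, 20.7 and 11.3 CPM in diabetic open, 0 and 19.4 CPM in normal closed and 6.22 and 6.17 CPM in normal open libraries. In open tissue both diabetic libraries were above both normal ones, while in closed tissue the dams overlapped. The tags of both heavy chains are cut short by the transcript's end, after 6 bases in Myh10 and 10 bases in Myh9 in the transcripts examined. The regulatory light chain Myl9 ranged from 8.71 to 44.97 CPM, with both ends in diabetic open tissue, and the essential light chain Myl6 had no count.

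Actb, the cytoplasmic beta-actin, had 2102 and 3146 CPM in diabetic closed, 3096 and 2415 CPM in diabetic open, 1641 and 3954 CPM in normal closed and 2239 and 2207 CPM in normal open libraries. Its lowest and highest values were both in normal closed tissue, so that its spread lay within a group and not between groups. Gamma-actin, Actg1, had 7.76 CPM in diabetic open library 14 and 0 CPM in the other 7. Muscle actins and smooth muscle genes (Acta1, Acta2, Actg2, Tagln and Cnn1) summed to 18.5 CPM in diabetic open library 13 and to at most 9.08 CPM elsewhere, and Acta1 was at 0 throughout.

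Among the genes of filament assembly, Pfn1, which delivers actin monomers to growing ends, ranged from 542 to 1071 CPM, again with both ends in normal closed tissue. Enah, an Ena/VASP protein that lengthens filaments, had 48.2 and 41.7 CPM in diabetic closed, 40.9 and 29.6 CPM in diabetic open, 17.99 and 41.2 CPM in normal closed and 14.4 and 18.3 CPM in normal open libraries. The diabetic libraries and normal closed library 12 were high and the other 3 normal libraries low. Its relatives were lower in count: Vasp lay between 0.395 and 7.41 CPM and Evl between 2.51 and 14.8 CPM. Pfn2 reached 6.09 CPM with 2 libraries at 0. The actin nucleator Cobl had 5.55 and 1.12 CPM in diabetic closed, 0.72 and 0 CPM in diabetic open, 17.8 and 4.15 CPM in normal closed and 0 and 7.06 CPM in normal open libraries, which overlap in both comparisons.

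Of the genes that sever and recycle filaments, Cfl1 (cofilin) had 2089 and 2036 CPM in diabetic closed, 2241 and 1864 CPM in diabetic open, 2094 and 2385 CPM in normal closed and 2517 and 2004 CPM in normal open libraries. With a coefficient of variation of 9.94% it was among the steadiest members, and its groups overlapped. Cfl2, the muscle-type cofilin, whose tag is cut, had 67.8 and 74.4 CPM in diabetic closed, 91.9 and 66.1 CPM in diabetic open, 95.1 and 117 CPM in normal closed and 88.6 and 66.0 CPM in normal open libraries. The related Dstn (destrin) ranged from 162 to 227 CPM in diabetic and from 154 to 167 CPM in normal libraries.

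The crosslinkers and membrane links included several well counted genes. Macf1, a very large protein that joins actin to microtubules, had 167 and 182 CPM in diabetic closed, 206 and 220.3 CPM in diabetic open, 189 and 189 CPM in normal closed and 213 and 214 CPM in normal open libraries. Every closed library lay below every open one, by a small step. Actn4, an alpha-actinin that bundles filaments and has a cut tag, had 14.7 and 19.4 CPM in diabetic closed, 33.8 and 51.5 CPM in diabetic open, 8.90 and 17.2 CPM in normal closed and 17.2 and 22.8 CPM in normal open libraries. The 2 diabetic open libraries were highest. Its relative Actn1 was more abundant and ranged from 207 to 393 CPM, with both ends in normal closed tissue.

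Vcl (vinculin), which links actin to adhesion sites, had 165 and 224 CPM in diabetic closed, 308 and 139.9 CPM in diabetic open, 123 and 210.0 CPM in normal closed and 218 and 226 CPM in normal open libraries. Ezr (ezrin), which ties actin to the apical membrane, had 166 and 128 CPM in diabetic closed, 236 and 121 CPM in diabetic open, 191 and 243 CPM in normal closed and 107 and 224 CPM in normal open libraries. In both genes replicates of a group were as far apart as the groups. Marcks, a membrane protein that holds and releases actin, had 85.1 and 85.9 CPM in diabetic closed, 221 and 73.8 CPM in diabetic open, 72.8 and 87.1 CPM in normal closed and 37.8 and 77.6 CPM in normal open libraries. Its high value was in diabetic open library 13 alone. Marcksl1, its paralog, was more abundant and steadier, with 377 and 279 CPM in diabetic closed, 425 and 318 CPM in diabetic open, 336 and 307 CPM in normal closed and 369 and 335 CPM in normal open libraries.

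The Abl kinases act on actin through several partners, and their groups overlapped. Abl1 had 51.0 and 37.8 CPM in diabetic closed, 70.1 and 51.3 CPM in diabetic open, 45.6 and 84.6 CPM in normal closed and 56.5 and 73.7 CPM in normal open libraries. Abl2 ranged from 26.2 to 45.3 CPM in diabetic and from 6.59 to 40.9 CPM in normal libraries.

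Among the junction and polarity genes, Cdh2 (N-cadherin) had 106 and 106 CPM in diabetic closed, 74.4 and 31.4 CPM in diabetic open, 88.3 and 46.3 CPM in normal closed and 88.3 and 77.8 CPM in normal open libraries. The 2 diabetic closed libraries were highest and diabetic open library 14 lowest. Its partner Ctnna1 (alpha-catenin), which couples cadherins to actin, had 79.1 and 39.3 CPM in diabetic closed, 55.3 and 20.7 CPM in diabetic open, 32.2 and 54.6 CPM in normal closed and 46.3 and 38.8 CPM in normal open libraries, with overlap in both comparisons. Pard3, a scaffold of the apical polarity complex whose tag is cut after 8 bases, had 32.1 and 26.0 CPM in diabetic closed, 46.4 and 91.0 CPM in diabetic open, 41.0 and 39.8 CPM in normal closed and 23.2 and 31.8 CPM in normal open libraries. Both diabetic open libraries were above the other 6. Tjp1 (ZO-1), a tight junction scaffold, lay between 70.3 and 120.4 CPM in 7 libraries and at 17.6 CPM in normal open library 10.

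Over the 8 libraries the members varied less than the typical gene. The median coefficient of variation was 32.6% over the 34 members tested and 52.8% over all 11779 genes tested. Among genes with a mean of at least 10 CPM it was 28.7% for 28 members and 34.6% for 6943 genes. At a mean of at least 100 CPM it was 20.8% for 13 members and 21.3% for 1816 genes. At a mean of at least 500 CPM it was 15.3% for 4 members and 17.2% for 325 genes. These are descriptions of abundance and spread, without a test.

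**Figure D2:**
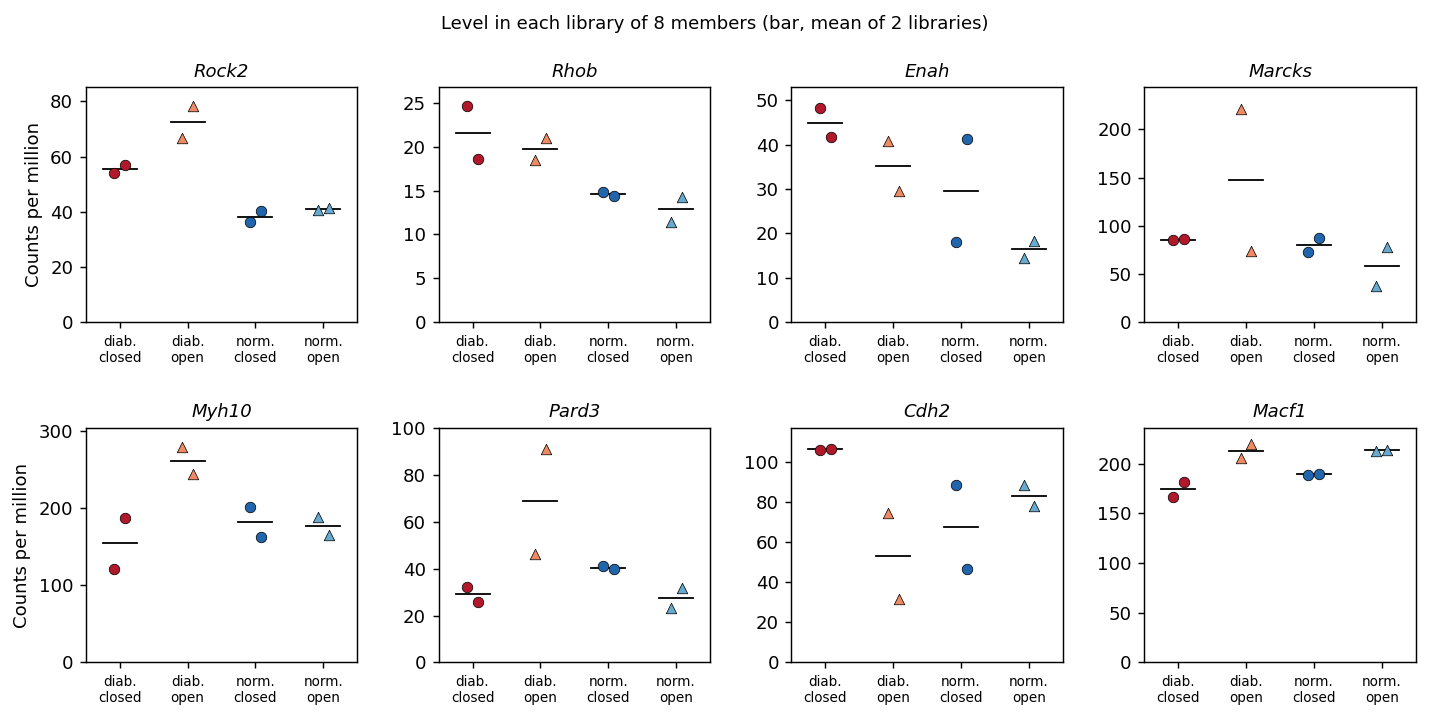
Levels of 8 members in CPM, 1 point per library, with a bar at the mean of the 2 libraries of a group and axes that start at 0. Rock2 and Rhob are higher in all diabetic than in all normal libraries, Macf1 is lower in all closed than in all open libraries, and for Marcks a single diabetic open library (221 CPM) stands far above the rest.

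The first comparison set closed against open tissue, with the dam as a covariate. Closed tissue came from behind the closure site and open tissue from in front of it. Closure and position along the body axis therefore cannot be told apart in any region difference below. No member passed edgeR's quasi-likelihood test at a Benjamini-Hochberg adjusted p below 0.05, and neither did any of the 11779 genes tested (0% called). At an unadjusted p below 0.05 there were 0 of 34 members, against 391 of all genes, 2.31% higher and 1.01% lower in closed tissue. DESeq2 called 9 of all genes (0.0764%) and no member. The log2 fold change was positive in 18 of the 34 members tested (all genes, 55.5%), with a median of 0.03 over the members and 0.07 over all genes. The median was -0.07 without normal closed library 12 and 0.10 without diabetic open library 13, and without normal libraries 10 and 12 it was -0.12, with 12 of 35 members positive. In 26 of the 34 (76.5%) the log2 fold change lay within 0.5 either way, against 57.5% of all genes. With a median standard error of 0.38 on the log2 scale (0.67 over all genes), differences of this size were not detectable. In such bulk tissue, fewer cells of a type and less RNA per cell cannot be told apart.

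By role, all 4 small GTPases had positive values in closed against open tissue, from 0.03 for Cdc42 to 0.42 for Rhoa on the log2 scale, and both Rock and both Abl kinases had negative ones, but no gene among them passed the test. The largest of the well counted values was that of Actn4, which averaged 15.04 ± 4.52 CPM in closed and 31.3 ± 15.1 CPM in open libraries (SD, n = 4 each). Its log2 fold change was -0.92 with a standard error of 0.43 (edgeR, unadjusted p = 0.0559, adjusted p = 1.00), and the groups overlapped. Myh10 averaged 168 ± 34.9 CPM in closed and 219 ± 52.0 CPM in open libraries, a log2 fold change of -0.32 that was -0.13 without diabetic closed library 15. The corresponding value for Vcl was -0.27, with 181 ± 46.1 CPM in closed and 223 ± 68.9 CPM in open libraries. It came to -0.04 without diabetic open library 13 and to -0.11 without normal closed library 11. On the other side, Enah averaged 37.3 ± 13.2 CPM in closed and 25.8 ± 11.9 CPM in open libraries, a log2 fold change of 0.65 with a standard error of 0.38. This value was 0.32 without normal closed library 12. Positive values that did not pass the test were also those of Pfn1 (0.23, with a standard error of 0.21), Cdh2 (0.39, with a standard error of 0.38) and the sparse Cobl (2.42, with a standard error of 1.70). Pfn1 came to 0.02 without normal closed library 12 and Cdh2 to 0.05 without diabetic open library 14.

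Macf1 was the only member whose 4 closed and 4 open libraries did not overlap, with 182 ± 10.5 CPM in the closed and 213 ± 5.89 CPM in the open libraries (SD, n = 4 each). Its log2 fold change was -0.19 with a standard error of 0.17 (edgeR, unadjusted p = 0.285, adjusted p = 1.00). Among all genes tested, 1.07% were lower in every closed than in every open library and 1.68% were higher, so 1 of 34 members lies near the background. The value of Macf1 stayed between -0.23 and -0.16 under every alternative that was run. Without library 13 it was -0.21.

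The second comparison set diabetic against normal dams, with the region as a covariate. Both libraries with Xist were from normal dams, so Xist and dam were not balanced in any dam difference below. The part of this imbalance in the values of Rock2, Rhob and Enah was not tested. Again no member and no gene passed the adjusted threshold in edgeR (0% called), while DESeq2 called 37 genes (0.314%) and no member. At an unadjusted p below 0.05, 2 of 34 members were higher in the diabetic libraries (all genes, 2.97%) and 0 were lower (all genes, 1.58%), out of 536 genes in all. The log2 fold change was positive in 21 of 34 members (all genes, 52.7%), with a median of 0.11 over the members and 0.04 over all genes. That median was -0.01 without diabetic open library 13 and 0.22 without normal closed library 12.

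Rock2 averaged 63.9 ± 10.9 CPM in diabetic and 39.6 ± 2.38 CPM in normal libraries (SD, n = 4 each). Its log2 fold change of 0.66 had a standard error of 0.25 (edgeR, unadjusted p = 0.0235, adjusted p = 0.999), and it was higher in 4 of 4 diabetic libraries than in any normal one. The value lay between 0.59 and 0.72 under every alternative that was run, and it was 0.70 without library 13. The step was present in each region, with 55.5 ± 2.20 CPM in diabetic against 38.1 ± 2.81 CPM in normal closed tissue, and 72.4 ± 8.21 CPM in diabetic against 41.1 ± 0.481 CPM in normal open tissue (SD, n = 2 each). Rhob averaged 20.6 ± 2.89 CPM in diabetic and 13.7 ± 1.53 CPM in normal libraries, a log2 fold change of 0.58 with a standard error of 0.45 (edgeR, unadjusted p = 0.222). Rock2 and Rhob were the 2 members of 34 with every diabetic above every normal library, against 2.48% of all genes, and no member lay below without overlap, against 1.15%.

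Enah averaged 40.1 ± 7.72 CPM in diabetic and 23.0 ± 12.3 CPM in normal libraries, a log2 fold change of 0.84 with a standard error of 0.38 (edgeR, unadjusted p = 0.0484, adjusted p = 0.999). Its value ranged from 0.69 to 1.27 over the alternatives, and the higher end came without the pair of normal libraries 10 and 12. Marcks averaged 116 ± 69.8 CPM in diabetic and 68.8 ± 21.5 CPM in normal libraries, a log2 fold change of 0.72 that was 0.20 without diabetic open library 13. Actn4 averaged 29.8 ± 16.6 CPM in diabetic and 16.5 ± 5.71 CPM in normal libraries, a log2 fold change of 0.73 with a standard error of 0.43.

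The negative values were smaller among the well counted genes. Cfl1 averaged 2058 ± 155 CPM in diabetic and 2250.0 ± 241 CPM in normal libraries, a log2 fold change of -0.15. Cfl2 (-0.29, with a standard error of 0.25) and Abl1 (-0.34, with a standard error of 0.30) also had negative values that did not pass the test, and the sparse Cobl had -2.43 with a standard error of 1.70. Without library 13 the value of Cfl2 was -0.44. The value of Abl1 came to -0.09 without normal closed library 12 and to 0.00 without the normal libraries 10 and 12. Actb (0.09), Rac1 (-0.04), Cdc42 (0.07), Marcksl1 (0.04) and Cdh2 (-0.01) differed by less than 0.1 on the log2 scale.

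The summed levels of markers of other cell types are given beside these values, without a test. The 8 endothelial markers summed to between 60.3 and 307 CPM in diabetic and between 26.4 and 59.6 CPM in normal libraries, although Kdr and Flt1 were near 0 throughout. The 2 ranges stood apart by less than 1 CPM, and without library 13 the highest diabetic sum was 135 CPM. Egfl7 alone gave 47.0 of the 60.3 CPM in diabetic closed library 15 and 49.9 of the 57.4 CPM in normal open library 9. Taken singly, Egfl7, Pecam1, Cdh5 and Emcn overlapped between dams, while Tek and Tie1 were higher in every diabetic library. The 9 mesoderm markers summed to between 294 and 1591 CPM in diabetic (at most 852 CPM without library 13) and between 152 and 422 CPM in normal libraries, which overlap. The 6 primitive blood markers summed to 4.36 and 210 CPM in diabetic closed, 924 and 1010.1 CPM in diabetic open, 0.356 and 0.296 CPM in normal closed and 63.3 and 1.059 CPM in normal open libraries, with Hbb-y at 0 in all 8. They were high in both diabetic open libraries, where Hba-x alone had 891 and 994 CPM, and the dams overlapped. Their part in the values of Rock2, Rhob, Enah and Marcks was not tested.

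**Figure D3:**
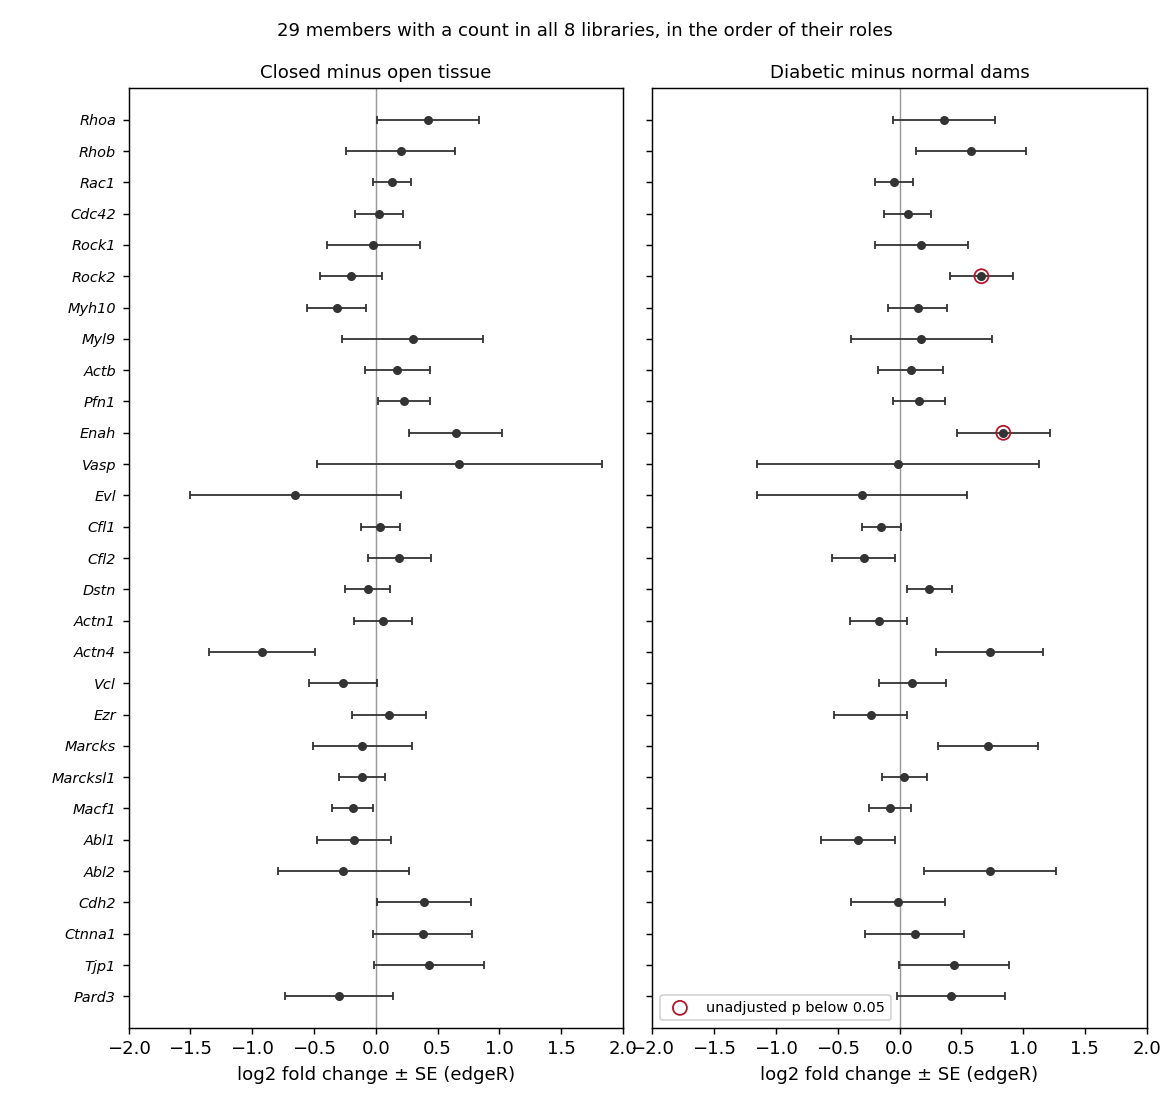
Log2 fold change ± standard error (edgeR) of the 29 members with a count in all 8 libraries, in the order of their roles, for closed minus open tissue (left) and diabetic minus normal dams (right). Red rings mark an unadjusted p below 0.05, which Rock2 and Enah have in the dam comparison, and no member passed the adjusted threshold.

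The regions were also compared within each dam. In diabetic dams, closed against open tissue had 15 of 34 members with a positive log2 fold change (all genes, 52.3%) and a median of -0.07 over the members against 0.03 over all genes. Without diabetic open library 13 that median was 0.15. No member passed the adjusted threshold in edgeR (all genes, 0%), and at an unadjusted p below 0.05 there were 2 members lower (all genes, 0.501%) and 0 higher (all genes, 2.28%), out of 327 genes in all. DESeq2 called 47 genes (0.399%) and no member. Pard3 averaged 29.0 ± 4.37 CPM in the closed and 68.7 ± 31.5 CPM in the open tissue of diabetic dams (SD, n = 2 each). The log2 fold change was -1.20 with a standard error of 0.48 (edgeR, unadjusted p = 0.0320, adjusted p = 1). Myh10 averaged 154 ± 46.1 CPM in the closed and 262 ± 25.1 CPM in the open tissue of diabetic dams, a log2 fold change of -0.72 with a standard error of 0.30 (edgeR, unadjusted p = 0.0391). Cdh2 had the opposite sign at 106 ± 0.381 CPM in the closed and 52.9 ± 30.4 CPM in the open libraries, a log2 fold change of 1.04 (edgeR, unadjusted p = 0.0533).

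These 3 values depended on single libraries. Pard3 came to -0.61 without diabetic open library 14 and -1.60 without library 13. Cdh2 came to 0.58 without library 14 and 1.80 without library 13. Myh10 came to -0.44 without diabetic closed library 15 and -0.62 without library 13. The primitive blood markers, at 4.36 and 210 CPM in the closed and 924 and 1010.1 CPM in the open libraries of diabetic dams, were likewise lower in the closed libraries, and their part in these values was not tested.

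In normal dams, closed against open tissue had 24 of 34 members with a positive log2 fold change (all genes, 52.2%) and a median of 0.13 over the members against 0.04 over all genes. Without normal libraries 10 and 12 there were 14 of 35 with a positive value and the median was -0.11. No member passed at any threshold, adjusted (all genes, 0%) or unadjusted (all genes, 2.31% higher and 1.09% lower, 400 in all), and DESeq2 called 33 genes (0.28%) and no member. Enah had 29.6 ± 16.4 CPM in the closed and 16.4 ± 2.78 CPM in the open libraries (SD, n = 2 each), and its log2 fold change was 0.91 with a standard error of 0.56, and 0.17 without normal closed library 12. Cfl2 had 106 ± 15.4 CPM in the closed and 77.3 ± 15.97 CPM in the open libraries, a log2 fold change of 0.50. On the negative side, the values were -0.37 for Vcl and -0.56 for Actn4, each within 1 standard error. The sign of the region difference was the same in diabetic and normal dams, which share no library, in 19 of 34 members (55.9%), against 50.7% of all genes tested.

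In closed tissue alone, diabetic against normal dams had 17 of 34 members with a positive log2 fold change (all genes, 51.7%) and a median of -0.01 over the members against 0.03 over all genes. No member passed at an adjusted (all genes, 0%) or an unadjusted threshold (all genes, 0.908% higher and 0.263% lower, 138 in all), and DESeq2 called 2 genes (0.017%) and no member. The 4 members with the smallest p in this comparison were Rock2 (0.52), Cdh2 (0.64), Cfl2 (-0.60) and Ezr (-0.58), with standard errors of 0.36 to 0.47 on the log2 scale. For Ezr these came from 147 ± 27.1 CPM in diabetic and 217 ± 36.9 CPM in normal closed tissue (SD, n = 2 each).

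In open tissue alone, 23 of 34 members had a positive log2 fold change in diabetic against normal dams (all genes, 51.1%), with a median of 0.14 over the members and 0.02 over all genes. That median was -0.01 without diabetic open library 13 and 0.38 without normal open library 9. No member passed the adjusted threshold in edgeR (all genes, 0%), 2 had an unadjusted p below 0.05 and were higher (all genes, 3.96%), and 0 were lower (all genes, 3.26%), out of 851 genes in all. DESeq2 called 199 genes (1.69%) and no member. Pard3 averaged 68.7 ± 31.5 CPM in diabetic and 27.5 ± 6.05 CPM in normal open tissue (SD, n = 2 each), and its log2 fold change was 1.32 with a standard error of 0.48 (edgeR, unadjusted p = 0.0215, adjusted p = 0.651). Its value was 0.73 without diabetic open library 14. The primitive blood markers were also higher in the diabetic open libraries (924 and 1010.1 CPM, against 63.3 and 1.059 CPM in normal open tissue), and their part was not tested. Marcks averaged 147 ± 103.9 CPM in diabetic and 57.7 ± 28.1 CPM in normal open tissue, a log2 fold change of 1.35 (edgeR, unadjusted p = 0.0259, adjusted p = 0.651) that was 0.36 without diabetic open library 13. Cdh2 (-0.66, lower in both diabetic libraries) and the sparse Cobl (-3.15) had the smallest p of the negative values. Without library 13 they were -1.42 and -7.56, and without library 14 Cdh2 was -0.20. The sign of the dam difference was the same in closed and open tissue, which share no library, in 22 of 34 members (64.7%), against 54.4% of all genes tested.

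Whether the region difference itself differed between dams was tested as an interaction, diabetic closed minus open less normal closed minus open. It was positive in 11 of 34 members (all genes, 50.7%), with a median of -0.17 over the members and 0.01 over all genes. That median ran from -0.32 without normal open library 10 to -0.08 without normal closed library 12, and it was -0.11 without library 13. No gene passed the adjusted threshold in edgeR (0% called), and at an unadjusted p below 0.05 there was 1 member below 0 (all genes, 1.72%) and 0 above (all genes, 2.01%), out of 440 genes. DESeq2 called 22 genes (0.187%) and no member. Pard3 had an interaction of -1.81 on the log2 scale with a standard error of 0.68 (edgeR, unadjusted p = 0.0237, adjusted p = 1.00), and it was -1.20 without diabetic open library 14. Cdh2 had 1.31 with a standard error of 0.67 (edgeR, unadjusted p = 0.0802) and Myh10 -0.81 with a standard error of 0.43 (edgeR, unadjusted p = 0.0882). Ctnna1, the junction partner of Cdh2, had 0.61 with a standard error of 0.82. Without library 13 the values of Cdh2 and Ctnna1 were 2.08 and 1.52. Both genes were lowest in diabetic open library 14, at 31.4 CPM for Cdh2 and 20.7 CPM for Ctnna1. The region difference of Cdh2 within diabetic dams was smaller without library 14, as given above.

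Ratios between related genes within a library do not depend on how libraries are scaled. Marcksl1 exceeded Marcks in all 8 libraries, with ratios of 1.93 to 9.77 and a median of 4.31. Rock2 exceeded Rock1 in 7 of 8 libraries, with a median ratio of 1.61. Actn4 stood at 0.0429 to 0.201 of Actn1, and Cfl2 at 0.0325 to 0.0490 of Cfl1, the narrowest of these ranges. With 0.5 added to both counts, Myh10 was between 8.36-fold and 30.1-fold above Myh9 in the 7 libraries with Myh9 counts. These ratios are of tag counts, and differences in tag detection between paralogs are part of them. Actn4, Cfl2, Myh10 and Myh9 have cut tags.

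**Figure D4:**
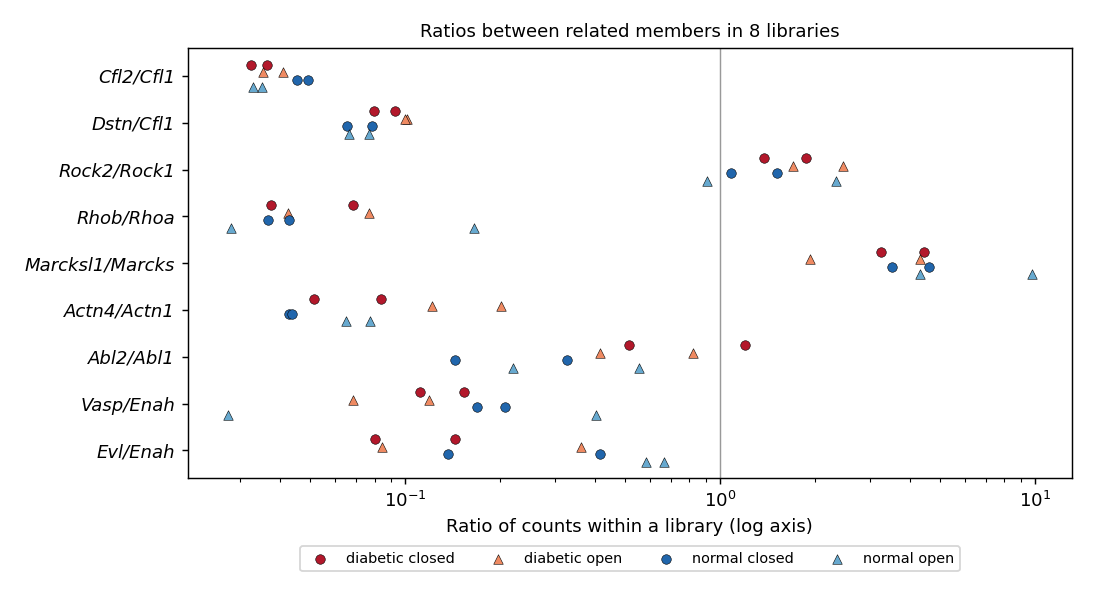
Ratio of counts of related members within each library (log axis), for 9 pairs with counts of both genes in all 8 libraries. Circles are closed and triangles open tissue, reds diabetic and blues normal dams, and the line marks a ratio of 1. Marcksl1/Marcks lies above 1 in all 8 libraries, and Dstn/Cfl1 is higher in the diabetic libraries than in the normal ones.

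For 14 pairs and both comparisons, 28 ratio differences were tested by a two-sided exact permutation test over libraries, in which 0.0286 is the smallest p that 4 against 4 can give. No pair passed after Benjamini-Hochberg adjustment over the 28. A pair alone at the smallest p could not pass that adjustment, so this outcome says nothing about differences in the ratios. The Dstn/Cfl1 ratio was 0.0928 and 0.0796 in diabetic closed, 0.101 and 0.1000 in diabetic open, 0.0785 and 0.0654 in normal closed and 0.0664 and 0.0767 in normal open libraries. It was higher in all 4 diabetic than in all 4 normal libraries by 0.38 on the log2 scale (exact p = 0.0286, the smallest possible, adjusted p = 0.6). The Abl2/Abl1 ratio differed by 1.30 on the log2 scale between diabetic and normal libraries (exact p = 0.0857) and the Evl/Enah ratio by -1.49 (exact p = 0.0857), both with overlap. For closed against open tissue the smallest p was that of Actn4/Actn1, with a difference of -0.98 on the log2 scale (exact p = 0.0857, adjusted p = 0.6).

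The wider pathway was read from a list of 107 further genes: other Shroom scaffolds, GTPase regulators, myosin and tropomyosin genes, actin nucleators, capping and turnover genes, linkers and junction genes. Of these, 104 were listed and 92 could be tested, and none passed the adjusted threshold in either comparison. In closed against open tissue, 49 of the 92 had a positive log2 fold change (53.3%, against 55.5% of all genes), with a median of 0.03. At an unadjusted p below 0.05, 3 were higher (all genes, 2.31%) and 1 lower (all genes, 1.01%), close to the background. Those higher included Cdh1 (E-cadherin, 81.0 ± 41.4 CPM in closed and 24.7 ± 12.6 CPM in open libraries, log2 fold change 1.82) and Pard6g (a Par6 polarity protein, 101 ± 6.30 CPM in closed and 66.3 ± 7.87 CPM in open libraries, 0.64). In both genes the closed libraries lay above the open ones without overlap, and without library 13 the values were 2.16 for Cdh1 and 0.62 for Pard6g. On the negative side stood Arhgap1, a GTPase activating protein (-0.58), Wasl, which activates the Arp2/3 complex (-0.57), and Cttn (cortactin, -0.37). Only Arhgap1 had an unadjusted p below 0.05 (edgeR, 0.0423, against 0.0949 for Wasl and 0.114 for Cttn). Without library 13 the values were -0.41 for Arhgap1, -0.80 for Wasl and -0.40 for Cttn. Cttn was lower in every closed than in every open library, as were 1.07% of all genes tested. The 7 surface ectoderm markers, of which Cdh1 is one, summed to between 94.9 and 244 CPM in closed and between 57.6 and 329 CPM in open libraries. Without library 13 the open libraries reached at most 85.7 CPM and lay below every closed one. Cdh1 is itself part of these sums, with 44.1 of the 94.9 CPM in diabetic closed library 16 and 20.1 of the 85.7 CPM in normal open library 10. Of the other markers, Krt8 and Epcam were also lower in every open library but 13 than in every closed one. Krt18, Grhl2, Grhl3 and Wnt6 overlapped. The part of surface ectoderm in the value of Cdh1 was not tested.

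In diabetic against normal dams, 49 of the 92 had a positive log2 fold change (53.3%, against 52.7% of all genes), with a median of 0.06. At an unadjusted p below 0.05, 4 were higher (all genes, 2.97%) and 2 lower (all genes, 1.58%), close to the background. Itgb1 (integrin beta 1) averaged 226 ± 61.3 CPM in diabetic and 140.0 ± 11.3 CPM in normal libraries, a log2 fold change of 0.63, without overlap. Tpm4, a tropomyosin that coats actin filaments, averaged 111 ± 37.3 CPM in diabetic and 54.1 ± 20.4 CPM in normal libraries, a log2 fold change of 1.05, also without overlap, and 0.73 without library 13. Tmsb10, which binds actin monomers, had 0.74 with overlap. Among those lower in diabetic libraries, Fmnl2, a formin that elongates filaments, averaged 165 ± 28.7 CPM in diabetic and 260.1 ± 36.5 CPM in normal libraries, a log2 fold change of -0.68, without overlap. Ctnnb1 (beta-catenin) averaged 137 ± 69.2 CPM in diabetic and 843 ± 682 CPM in normal libraries, a log2 fold change of -2.56, but normal open library 10 stood at 82.7 CPM, within the diabetic range of 77.8 to 229.7 CPM. Pak1, a kinase downstream of Rac1 and Cdc42, had -0.42 and did not reach an unadjusted p below 0.05 (edgeR).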

How the data were processed

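The authors deposited 1 table per library of unnormalized tag counts, listed by gene symbol and made from SOLiD SAGE libraries (7 ng RNA each, per the labels' protocols). The reads were set against build mm9, as the submitters' processing notes give it. Which aligner and counter were used, how tags with several matching genes were treated and whether strand was used is not stated in the sources used here. Groups came from the sample labels.

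Tests ran in R 4.3.3 (edgeR 4.0.16, DESeq2 1.42.0, limma 3.58.1), and levels and ratios in Python 3.11.15. Genes were kept by filterByExpr (minimum count 10, minimum total 15), which left 11779 genes and 34 of the 36 members (Myl6 and Actg1 failed), and libraries were scaled by TMM. Genes were tested with the quasi-likelihood F test of edgeR and Benjamini-Hochberg adjustment over all genes tested, in a model with region and dam as additive terms and in contrasts of the 4 groups. A standard error is that implied by the F statistic. Where a gene of a pair had a 0 count in any library, 0.5 was added to the counts of both genes in all 8 libraries before the ratio. The fitting was tested on simulated counts. Levels are CPM of the library total, as mean ± SD. Members, lists, pairs and named genes were chosen with earlier results of these data known. Named were the members with the smallest p in each direction (4 per additive comparison, 2 per contrast), the 3 pathway genes with the smallest p in each direction, and 12 members by name. The pathway rule named 1 gene that is not reported here. SDs and standard errors hold the spread between libraries.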

Additional observations from a re-analysis of the deposited data

Results flagged for a closer look

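Within the 4 libraries of each region and of each dam, 140 groups were examined for a library that stands far from the other 3 by Dixon's ratio on log2(CPM + 1), and 13 such values were found. In 4 of the 13 (Shroom3 and Actg1, both sparse) the other 3 libraries were at 0, which sets the ratio to 1 by construction. Of the remaining 9, normal closed library 11 held 3, diabetic open library 14 and normal open library 10 held 2 each, and diabetic open library 13 and normal open library 9 held 1 each. Chance flags about 1 in 20 groups without such ties.

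In library 14, Shroom2 was lowest of the diabetic libraries at 0.119 CPM (the others, 3.97 to 4.20 CPM). The same library was the only diabetic one with Shroom3 counts, at 2.75 CPM, and the only library with Actg1 counts, at 7.76 CPM, which set it apart among both the diabetic and the open libraries. Cdh2 there was lowest of the open libraries at 31.4 CPM (the others, 74.4 to 88.3 CPM).

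In normal closed library 11, Enah at 17.99 CPM (41.2 to 48.2 CPM) and Marcks at 72.8 CPM (85.1 to 87.1 CPM) were lowest of the closed libraries, and Vcl at 123 CPM (210.0 to 226 CPM) was lowest of the normal ones. In normal open library 10, Rhoa was lowest of the normal libraries at 86.6 CPM (346 to 409 CPM) and Tjp1 lowest of the open ones at 17.6 CPM (86.5 to 99.8 CPM). Marcks was highest of the diabetic libraries in library 13 at 221 CPM (73.8 to 85.9 CPM), Shroom3 was highest of the closed ones in library 12 at 1.63 CPM (the others at 0), and Rhob was lowest of the normal ones in library 9 at 11.5 CPM (14.3 to 14.8 CPM).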

How the results depend on the processing

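No member passed the adjusted threshold under any alternative that was run: another scaling, no filter on low counts, DESeq2, limma-voom, leaving out each library in turn, or leaving out normal libraries 10 and 12, the pair with Xist. The smallest adjusted p of a member was 0.0816, in diabetic against normal open tissue without normal open library 9 (edgeR, Benjamini-Hochberg adjustment). The numbers of all genes that passed did change. In the order closed minus open in both dams, diabetic minus normal in both regions, closed minus open in diabetic dams, closed minus open in normal dams, diabetic minus normal in closed tissue, diabetic minus normal in open tissue and the interaction, they were 29, 89, 41, 22, 11, 138 and 23 without a filter, 9, 37, 47, 33, 2, 199 and 22 with DESeq2, and with limma-voom 1 each in the third, sixth and seventh. Leaving out 1 library gave 0 to 3, 0 to 2, 0 to 21, 0 to 18, 0 to 3, 0 to 61 and 0 to 9. The cause was not tested. Since the pair with Xist was from normal dams only, leaving it out changed the normal group alone. The median log2 fold change of the members for diabetic minus normal in both regions was 0.11 with all libraries and 0.11 without this pair.

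The sign turned for Abl1 in diabetic against normal dams without libraries 10 and 12 (0.000175), and for Cobl in diabetic against normal open tissue without normal open library 10 (4.70) and without libraries 10 and 12 (4.76), while leaving out 1 library in turn gave -7.56 to 4.70 for it. In both settings Cobl had no normal open count left. TMM moved a member's level by at most 3.83% and DESeq2's size factors by at most 2.60%. No paired analysis was possible because the sources used here do not give which embryo or litter each library came from. The 2 libraries per group and a median standard error of 0.38 on the log2 scale for members limit what could be seen, and sparse members such as Shroom3 could not be compared.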
